A study of Mus musculus with 6 samples.

Results

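Genes of the visual cycle and of retinoid handling were examined in retinal RNAseq of 5XFAD mice that were or were not treated with efavirenz (EFV). These were 10 of the 19401 genes in the files, and they were chosen by name: Rpe65, Lrat, Rdh5 and Stra6, which RPE cells express; Rlbp1 and Rgr, which RPE and Müller cells both express; and Rdh12, Abca4, Rbp3 and Rdh8, which photoreceptors express. Each of the 10 was found in all 6 libraries and had enough counts to be tested.

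The 5XFAD mouse is a transgenic model of Alzheimer's disease with fast amyloid deposition. Its transgenes, mutant human APP among them, are driven by the Thy1 promoter, which acts mainly in neurons. The animals here were hemizygous F1 mice on the B6SJL background that had been genotyped as free of the retinal degeneration alleles of Crb1 and Pde6b, and the control mice carried the same transgenes. All mice were 9 months old. The EFV group received the drug in drinking water from 3 to 9 months of age at a labelled dose of 0.08 mg/kg of body weight (the study's methods state a slightly higher daily dose), and the control group received the vehicle, aqueous Tween 80. EFV is an anti-HIV drug that at low dose activates CYP46A1, the main cholesterol hydroxylase of neurons, and the comparison asks how this treatment altered the retinal transcriptome. There were 3 libraries per group. Retina plus RPE of 5 to 6 mice was pooled for each, so that replicate error here means the variation of pools. No wild-type mice were in this comparison, so every value below is EFV against control within 5XFAD.

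In the visual cycle, light converts the chromophore of the visual pigments from its cis to its all-trans form in the photoreceptor outer segment, and the all-trans form is then reduced to retinol, carried to the RPE, esterified, isomerized, oxidized and returned. Rods depend on this exchange between cells. Müller cells, the main glia of the retina, also hold a retinoid-binding protein and take part in a route that serves cones. Mutations in most of these genes cause inherited retinal degeneration in humans.

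Promoter sequence is shown for 4 of the genes, because these share a binding motif although they are expressed in different cells. TAATCC, the core motif of CRX and OTX2, homeodomain factors of photoreceptors and RPE, was searched on both strands in the 250 bases before the transcript starts that the promoter table of RefSeq lists (GRCm38.p6, which is the mm10 build). These are not always the outermost start of the gene. The window of Rpe65 reaches into its gene, those of Abca4, Rlbp1 and Rdh5 lie within theirs, and none of Stra6 lies at its first base. The motif was present before Rpe65 and Rgr and before the photoreceptor genes Abca4 and Rbp3, that is in 4 of 13 windows of the 10 genes (Stra6 has 4 starts), and in 6.25% of all 32851 windows of the same length. It lay 42 bases before the start of Rpe65, 167 before that of Rgr, 58 before that of Abca4 and 69 before that of Rbp3. The windows are chr3:159598931-159599180 on the plus strand for Rpe65, chr14:37049015-37049264 on the minus strand for Rgr, chr3:122044210-122044459 on the plus strand for Abca4, and chr14:33953753-33954002 on the plus strand for Rbp3. They are written from 5′ to 3′ toward the start, and capitals mark each match to a searched motif, including matches of the opposite strand, which read GGATTA for TAATCC.
Rpe65: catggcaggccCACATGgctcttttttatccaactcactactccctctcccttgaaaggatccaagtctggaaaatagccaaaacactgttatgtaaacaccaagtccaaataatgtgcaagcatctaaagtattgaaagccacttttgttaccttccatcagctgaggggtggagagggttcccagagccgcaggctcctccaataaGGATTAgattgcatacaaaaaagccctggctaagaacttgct
Rgr: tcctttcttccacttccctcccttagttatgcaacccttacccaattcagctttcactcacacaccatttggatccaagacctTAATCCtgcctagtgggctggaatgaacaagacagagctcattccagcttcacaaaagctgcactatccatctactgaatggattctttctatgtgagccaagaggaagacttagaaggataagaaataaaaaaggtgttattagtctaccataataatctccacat
Abca4: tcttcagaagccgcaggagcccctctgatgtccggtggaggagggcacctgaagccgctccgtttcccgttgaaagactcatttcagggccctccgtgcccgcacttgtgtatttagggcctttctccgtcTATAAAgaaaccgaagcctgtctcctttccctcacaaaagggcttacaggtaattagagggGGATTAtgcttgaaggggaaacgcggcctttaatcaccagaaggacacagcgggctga
Rbp3: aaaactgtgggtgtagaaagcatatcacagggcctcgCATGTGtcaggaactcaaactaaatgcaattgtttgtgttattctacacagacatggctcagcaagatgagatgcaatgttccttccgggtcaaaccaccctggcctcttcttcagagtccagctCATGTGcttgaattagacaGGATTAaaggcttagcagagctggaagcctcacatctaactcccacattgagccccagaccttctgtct
The other capitals are CATGTG, an E-box of the kind that MITF binds, or its reverse CACATG, and TATAAA, the TATA box. CATGTG was present before Rpe65, Rlbp1 and Rbp3 (12.3% of all windows) and TATAAA before Rlbp1 and Abca4 (12.4%), while CACGTG, another E-box, was in none of the 13 windows and in 6.02% of all. No matches overlapped. These are matches of letters, and no binding was measured.

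The depth of the libraries was even, from 23455167 to 24590278 counts, and 15537 genes that reached 10 counts in 3 or more libraries were tested. A library of each group stood apart in genes other than the visual cycle. In control 3, the summed FPKM of 12 lens markers was 2425 against 20.5 to 100.4 in the other 5 libraries. In EFV 3, the Y-linked gene Eif2s3y had an FPKM of 15.2 against 30.4 to 40.8 in the others, although the mice of these pools are described as male. All 20 RPE markers outside the visual cycle, such as Best1 and Tyr, were listed above 0 in each library, and so were the 10 visual cycle genes. The summed FPKM of these RPE markers was 112.2, 74.2 and 107.7 in control 1, 2 and 3 and 114.2, 116.5 and 106.3 in EFV 1, 2 and 3, so control 2 was the lowest. Most of each sum came from Krt18, Ttr and Rrh, with a mean FPKM of 40.8, 28.3 and 17.9 over the 6 libraries. Pearson's r of their log2 levels with that of Rpe65 was 0.50 for Krt18, 0.95 for Ttr and 0.20 for Rrh. The sum thus mixes genes that followed Rpe65 to unlike degrees, and it is not a direct measure of the amount of RPE. In such bulk samples fewer RPE cells and less RNA per RPE cell cannot be told apart.

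The genes differed widely in level. FPKM is a level per length of transcript, so it can be compared between genes. Rbp3, which encodes the interphotoreceptor retinoid-binding protein, had the highest mean FPKM of the 10 genes (1049 over the 6 libraries), above Rlbp1 (219), Rdh12 (211) and Abca4 (211), whose ranges over the libraries overlapped each other. Rdh8 followed at 56.8. The RPE genes and Rgr were lower, with Rdh5 at 9.205, Rgr at 7.12, Rpe65 at 5.34 and Stra6 at 3.44, neighbours in this order that overlapped in range, and Lrat was the lowest at 0.868. The levels of Rdh5 and Rgr are less certain, because the transcripts that the authors assigned to these genes include ones that they assembled and that have no name, which set the length by which the counts were divided.

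**Figure D1:**
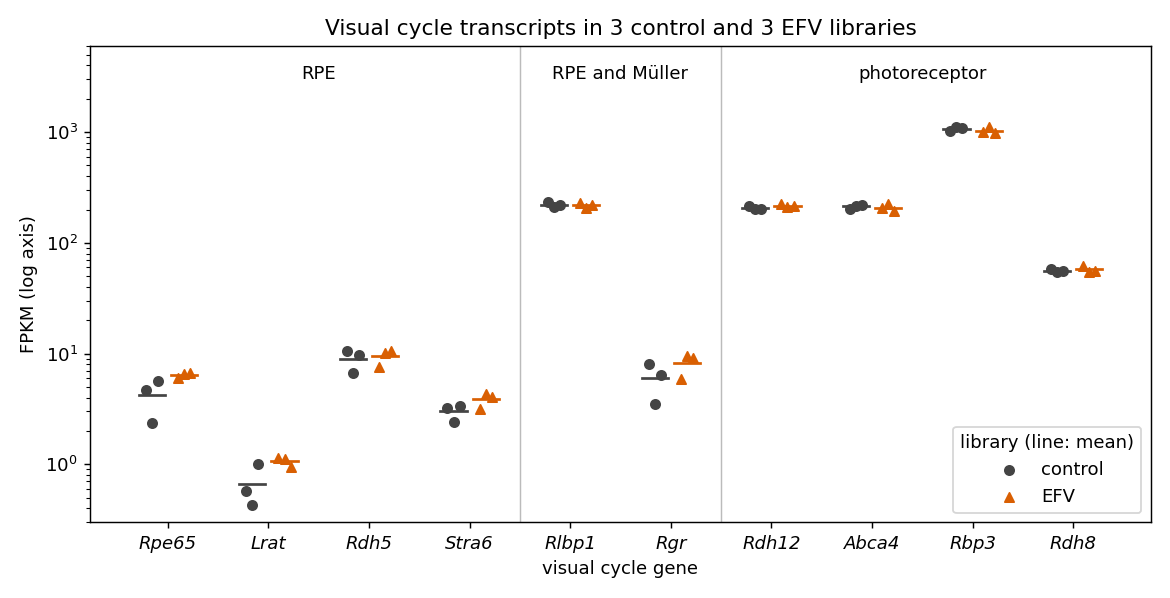
FPKM (log axis) of the 10 visual cycle genes in each of the 3 control and 3 EFV libraries; each point is a library (dots for control, triangles for EFV), short lines are group means, and vertical lines part the cell classes. The photoreceptor genes and Rlbp1 lie above 50 in every library with little spread, whereas the RPE genes and Rgr lie below 11 and spread widely, control 2 having the lowest value of all 5.

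At an adjusted p of 0.05 no gene of the retina differed between EFV and control in the quasi-likelihood test of edgeR (0 of 15537, smallest adjusted p 0.323), and each visual cycle gene had an adjusted p of 0.999. At an unadjusted p of 0.05 there were 472 genes with edgeR (3.04%). At an adjusted p of 0.05, DESeq2 gave 11 genes (0.0708%), a Poisson model without variation between pools 2043 (13.1%) and limma on log2(FPKM + 0.1) none. The study used limits of p of 0.05 and a change of 7% or more, on a Poisson model. When these limits were put on the unadjusted p of edgeR, they were passed by 3 of the 10 genes, all higher in EFV (Rpe65, Lrat and Stra6), against 3.01% of all genes tested in either direction and 1.47% in the higher direction. With DESeq2 the same 3 genes passed (1.73% of all genes), with limma on log2(FPKM + 0.1) Rpe65 and Lrat (3.15%), and with the Poisson model Rdh5 and Rgr as well (14.8%). These 3 genes are also in the gene table that the study chose on these same libraries, so the count is not independent evidence of their direction. In all, 7 of the 10 genes had a higher estimate in EFV and 3 a lower one, with a median log2 fold change of 0.11, whereas 50.5% of all genes tested had a higher estimate and the median of all was 0.00.

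The largest estimates were those of the RPE genes Lrat and Rpe65. Rpe65 encodes the isomerohydrolase that turns retinyl esters into the cis retinol, the step by which the chromophore is remade. Its gene (Entrez 19892) is at chr3:159599075-159625307. Rpe65 FPKM was 4.65, 2.35 and 5.69 in control 1, 2 and 3 and 6.05, 6.59 and 6.69 in EFV 1, 2 and 3. All EFV libraries were thus above all control libraries, and Rpe65 was the only one of the 10 genes whose groups did not overlap, which was the case for 7.67% of all genes tested, 4.99% being higher in EFV. The control mean was 4.23 ± 1.71 (SD, n = 3) and the EFV mean 6.44 ± 0.344 (SD, n = 3). The log2 fold change was 0.58 ± 0.25 (SE) with a 95% confidence interval of 0.02 to 1.13 (edgeR). It rested on 103 to 255 counts per control library and 272 to 299 counts per EFV library. Without control 2, the lowest library, the log2 fold change of Rpe65 was 0.29 ± 0.12 (SE) and past the limits of the study, and without EFV 3 it was 0.55 ± 0.29 (SE) and not past them.

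Lrat encodes lecithin:retinol acyltransferase, which makes the retinyl esters that RPE65 uses, and lies at chr3:82892582-82903974 (Entrez 79235). Lrat FPKM was 0.58, 0.43 and 1.00 in control 1, 2 and 3 and 1.15, 1.11 and 0.94 in EFV 1, 2 and 3. Control 3 was above EFV 3, so the groups overlapped. Its mean FPKM was 0.670 ± 0.295 (SD, n = 3) for control and 1.067 ± 0.112 (SD, n = 3) for EFV, and the log2 fold change of 0.65 ± 0.27 (SE) was the largest of the 10 (95% confidence interval 0.04 to 1.26, edgeR). Lrat is also the gene with the fewest counts, 54 to 149 per library, for which counting error alone gives a coefficient of variation of 9.46%. Leaving out control 3, the library with the high lens markers, gave a log2 fold change of 1.06 ± 0.19 (SE), past the limits, and leaving out control 2 gave 0.42 ± 0.24 (SE), not past them.

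Stra6 encodes the membrane receptor through which RPE takes up retinol from the retinol-binding protein of blood (Entrez 20897, chr9:58063793-58154004). In control 1, 2 and 3 Stra6 had an FPKM of 3.20, 2.43 and 3.37, and in EFV 1, 2 and 3 of 3.17, 4.36 and 4.09. EFV 1 lay within the control range, and EFV 2 and EFV 3 lay above it. With means of 3.00 ± 0.501 (SD, n = 3) and 3.87 ± 0.624 (SD, n = 3), the log2 fold change was 0.35 ± 0.15 (SE), with an interval whose lower end is at 0.00 and whose upper end is at 0.70 (edgeR). The call of Stra6 at the limits of the study was lost in 5 of the 11 alternatives that kept all libraries, among them limma, and in 4 of the 6 fits that left out a library. Its estimate was lowest without control 2, at 0.22.

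Rdh5 encodes the dehydrogenase of the RPE that oxidizes the cis retinol to the cis retinal, the last step before the chromophore returns (Entrez 19682, chr10:128913588-128920037). Rdh5 FPKM was 10.5, 6.69 and 9.77 in control 1, 2 and 3 and 7.64, 10.2 and 10.45 in EFV 1, 2 and 3. The groups overlapped over most of their range. The log2 fold change of 0.16 ± 0.19 (SE) had a 95% confidence interval of −0.28 to 0.60, so neither a lower level nor one 1.51-fold higher is outside it. The length by which Rdh5 counts were divided ran from 1053 to 1300 bases between libraries, which enters its FPKM but not its count test, and Rdh5 overlaps the gene Bloc1s1 by 124 bases in the annotation.

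Among the genes that RPE and Müller cells share, Rlbp1 encodes CRALBP, which binds the cis retinoids in RPE and Müller cells (Entrez 19771, chr7:79374865-79392250). Rlbp1 FPKM was 232, 209 and 220.1 in control 1, 2 and 3 and 227, 208 and 220.4 in EFV 1, 2 and 3. The groups covered the same range, and the log2 fold change was −0.03 ± 0.05 (SE), with a 95% confidence interval of −0.14 to 0.08. This interval corresponds to a fold change between 0.907 and 1.06. Rlbp1 exceeded Rpe65 in FPKM by 49.8, 88.8 and 38.7 times in control 1, 2 and 3 and by 37.5, 31.6 and 32.9 times in EFV 1, 2 and 3.

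Rgr encodes an opsin of RPE and Müller cells that forms the cis retinal in light (Entrez 57811, chr14:37034909-37049014). In control 1, 2 and 3 Rgr had an FPKM of 8.12, 3.54 and 6.44, and in EFV 1, 2 and 3 of 5.88, 9.61 and 9.10. As with Rpe65, the lowest value was that of control 2, but here EFV 1 lay between the control libraries. The log2 fold change of 0.43 ± 0.27 (SE) had a 95% confidence interval of −0.18 to 1.03. Rgr had 353 to 991 counts per library, so that counting error gave a coefficient of variation of 3.69% against 32.0% between libraries. Without control 1 the log2 fold change was 0.69 ± 0.26 (SE) and without EFV 1 it was 0.62 ± 0.26 (SE), both past the limits of the study, and without control 2 it was 0.16 ± 0.20 (SE).

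Photoreceptor genes had estimates close to 0. Rbp3, whose protein carries retinoids through the space between photoreceptors and RPE, had an FPKM of 1016, 1110.1 and 1079 in control 1, 2 and 3 and of 1002, 1104 and 984 in EFV 1, 2 and 3 (Entrez 19661, chr14:33954003-33964219). Its log2 fold change was −0.07 ± 0.06 (SE; 95% confidence interval −0.20 to 0.06). The value passed the limits of the study in a single fit, without EFV 2, where it was −0.13 ± 0.05 (SE).

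Abca4 encodes the transporter that moves retinal adducts out of the outer segment discs (Entrez 11304, chr3:122043891-122180070). Abca4 FPKM was 204, 216 and 219 in control 1, 2 and 3 and 208, 223 and 194 in EFV 1, 2 and 3, with EFV 3 the lowest and EFV 2 the highest of all 6. The log2 fold change was −0.05 ± 0.06 (SE; 95% confidence interval −0.18 to 0.09).

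Rdh12 and Rdh8 encode the retinol dehydrogenases that reduce all-trans retinal, RDH8 in the outer and RDH12 in the inner segment of photoreceptors. Rdh12 (Entrez 77974, chr12:79208913-79222664) had an FPKM of 213, 202 and 202 in control 1, 2 and 3 and of 223, 211 and 216 in EFV 1, 2 and 3. A small overlap remained between control 1 and EFV 2, and the log2 fold change was 0.06 ± 0.04 (SE; 95% confidence interval −0.04 to 0.16). Rdh8 (Entrez 235033, chr9:20818494-20828058) had an FPKM of 57.5, 54.8 and 55.6 in control 1, 2 and 3 and of 61.9, 55.05 and 56.2 in EFV 1, 2 and 3. EFV 1 stood above the other 5 libraries, and the log2 fold change was 0.03 ± 0.05 (SE; 95% confidence interval −0.09 to 0.14). For the 4 photoreceptor genes the upper ends of these intervals correspond to fold changes of 1.04 for Rbp3, 1.06 for Abca4, 1.12 for Rdh12 and 1.10 for Rdh8.

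**Figure D2:**
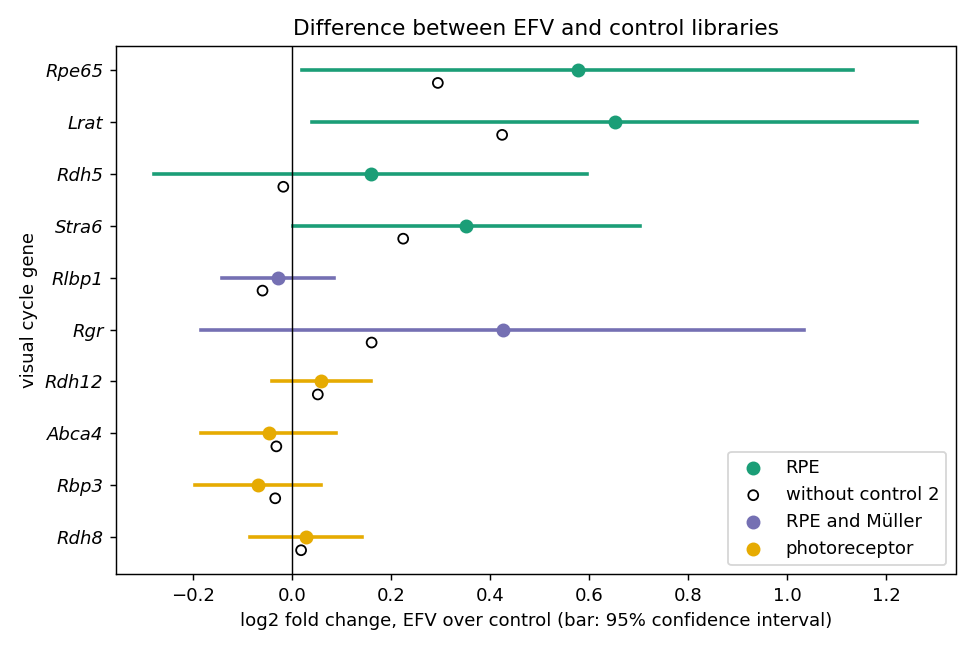
Log2 fold change of EFV over control for the 10 genes (points) with the 95% confidence interval of edgeR (bars), colored by cell class, and without control 2 (open circles). The lower ends of the bars of Rpe65, Lrat and Stra6 lie from 0.00 to 0.04, and those of the photoreceptor genes and Rlbp1 are short and include 0.

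By class, the 4 RPE genes had a median log2 fold change of 0.46, with 4 of 4 estimates higher in EFV, and the 4 photoreceptor genes one of −0.01, with 2 higher and 2 lower. The difference between the medians was 0.47, and no p is given for it because the genes were chosen with earlier results of these data known. In single libraries, the mean log2 FPKM of the RPE genes was 1.63, 1.01 and 1.89 in control 1, 2 and 3 and 1.85, 2.09 and 2.02 in EFV 1, 2 and 3. Control 3 was therefore above EFV 1, and the groups overlapped. The same mean for the photoreceptor genes stayed between 7.78 and 7.86. The RPE minus photoreceptor difference of mean log2 FPKM was −6.31 ± 0.45 (SD, n = 3) for control and −5.84 ± 0.14 (SD, n = 3) for EFV. Without control 2 the difference between the median log2 fold changes of the classes was 0.27, and without control 3 it was 0.64.

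The RPE markers outside the visual cycle, taken as a mean, were also lowest in control 2. This mean of log2 FPKM weighs each marker alike, also those with few counts. In control 2, Mlana, Oca2 and Krt8 had 2, 7 and 9 counts. Not every marker was lowest there: Best1, Tyr, Mitf, Clic6 and Rrh had their lowest FPKM in other libraries. Of 18 markers tested, 16 had a higher estimate in EFV and 2 a lower one, with a median log2 fold change of 0.28, where 50.5% of all genes tested had a higher estimate, and their mean log2 FPKM was 0.65, −0.06 and 0.67 in control 1, 2 and 3 and 0.56, 0.90 and 0.90 in EFV 1, 2 and 3. A single marker of the 18 passed the limits of the study, as did 1.47% of all genes in the higher direction: Kcnj13, which encodes a potassium channel of the RPE. Kcnj13 and the marker Slc16a8 are also in the study's gene table. The EFV minus control difference of the marker mean was 0.36 with them and 0.33 without them. Control pools had 0.940 ± 0.161 FPKM (SD, n = 3) of Kcnj13 and EFV pools 1.44 ± 0.119 (SD, n = 3), and its log2 fold change was 0.60 ± 0.18 (SE). The markers with the highest level had log2 fold changes of 0.07 for Krt18, a keratin of epithelia, 0.33 for Ttr, the thyroxine and retinol-binding protein carrier transthyretin, −0.03 for Rrh, the opsin peropsin of RPE microvilli, and 0.16 for Clic6, a chloride channel protein, and none of these passed the limits.

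Relative to these markers, that is after subtraction of their mean log2 FPKM in each library, the EFV minus control difference was 0.34 for Rpe65, 0.39 for Lrat, 0.01 for Stra6, 0.13 for Rgr, −0.28 for Rdh5 and −0.37 for Rlbp1. When the marker mean was a covariate in edgeR, none of the 10 genes passed the limits of the study, against 197 of all genes higher and 211 lower. The log2 fold change was then 0.19 ± 0.15 (SE) for Rpe65, 0.41 ± 0.29 (SE) for Lrat and 0.10 ± 0.12 (SE) for Stra6. Whether the amount of RPE in the pools had a part in the higher values of the RPE genes was not tested beyond these values.

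**Figure D3:**
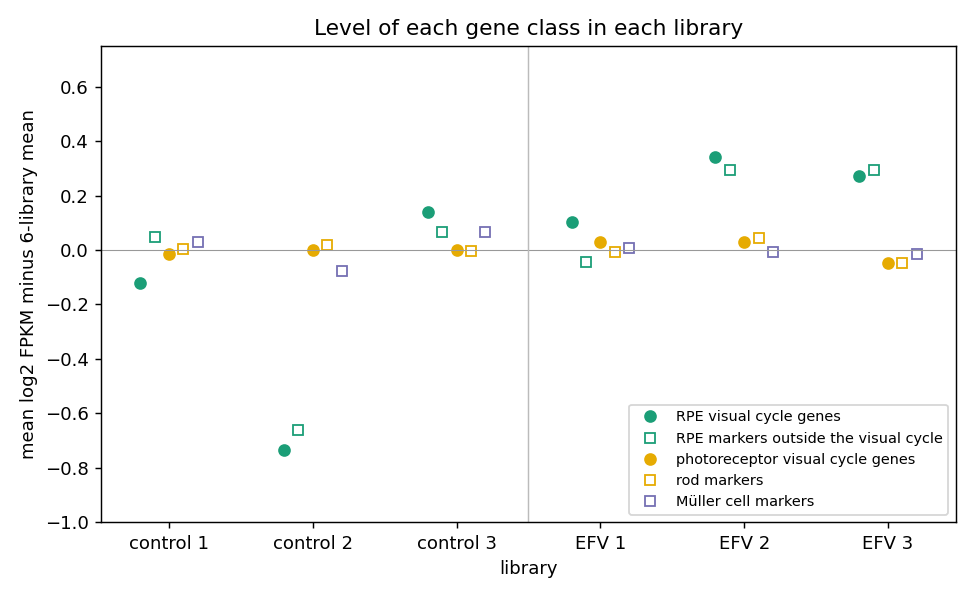
Mean log2 FPKM of each gene class in each library, as the deviation from its mean over the 6 libraries; filled points are the RPE and the photoreceptor visual cycle genes, and open squares are the markers of RPE, rods and Müller cells. The RPE visual cycle genes and the RPE markers lie lowest in control 2 and highest in EFV 2 and EFV 3, and the other classes stay within a range of 0.14 or less.

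The spread between libraries was wide for the RPE genes and Rgr and narrow for Rlbp1 and the photoreceptor genes. The coefficient of variation of FPKM over the 6 libraries was 30.7% for Rpe65, 34.0% for Lrat, 20.3% for Stra6, 17.7% for Rdh5 and 32.0% for Rgr. For Rlbp1, Rdh12, Abca4, Rbp3 and Rdh8 it lay between 3.90% and 5.27%. The highest library exceeded the lowest by 2.85 times for Rpe65, 2.67 times for Lrat and 2.71 times for Rgr, where the median gene of all tested had 1.21 times. Counting error, with coefficients of variation from 0.274% for Rbp3 to 9.46% for Lrat, was below the spread between libraries for each of the 10 genes.

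Across the 6 libraries, the log2 CPM (counts scaled to the library total after TMM scaling) of the RPE genes varied together by Pearson's r. By rank, Lrat did so less with Rdh5 and Stra6. These correlations are a description without a test, since the libraries include both groups and share the low RPE genes of control 2. Over the 6 pairs of RPE genes Pearson's r was from 0.50 to 0.90 with a median of 0.81, and over the 6 pairs of photoreceptor genes it was from −0.66 to 0.93 with a median of −0.35. Spearman's rho of the RPE pairs ran from 0.03 for Lrat and Rdh5 to 0.77 for Rpe65 and Stra6. It was 0.37 for Lrat and Stra6, 0.54 for Rpe65 and Rdh5, 0.60 for Rpe65 and Lrat and 0.66 for Rdh5 and Stra6. Rgr followed Stra6 (r = 0.93, Spearman's rho = 0.94, 6 libraries) and Rpe65 (r = 0.85, rho = 0.71, 6 libraries), whereas Rlbp1 did not follow Rpe65 (r = 0.16, rho = −0.26, 6 libraries).

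With the mean of the RPE markers, r over the 6 libraries was 0.95 for Rpe65, 0.96 for Stra6, 0.97 for Rgr, 0.89 for Rdh5, 0.75 for Lrat and 0.09 for Rlbp1. The libraries farthest from the median of the markers, control 2 and EFV 2, were then left out. Over the remaining 4, r was 0.51 for Rpe65, 0.97 for Stra6, 0.83 for Rgr and 0.95 for Rdh5. It was −0.08 for Lrat and −0.69 for Rlbp1. The r of Lrat thus rested on those libraries, and that of Rpe65 did so in part. Abca4 and Rbp3 had an r of 0.91 each with the mean of the rod markers, Rdh12 one of −0.36 and Rdh8 one of −0.23, and without EFV 2 and EFV 3 that of Abca4 was 0.65 and that of Rbp3 0.90. With the mean of the Müller cell markers, r was 0.48 for Rlbp1 and 0.32 for Rgr. For Rlbp1 an r of the same size but opposite sign, −0.48, was found with the mean of the rod markers.

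The genes whose log2 CPM was most like that of Rpe65 over the 6 libraries, of 12293 genes with a mean FPKM of at least 1, were Psmd2 (r = 0.997), Xrcc6 (r = 0.994), Ice1 (r = 0.992), Acap3 (r = 0.992) and Antxr2 (r = 0.988). These are not genes of the RPE in particular, and like Rpe65 they were lowest in control 2. Their log2 fold changes were from 0.05 to 0.15, and Psmd2, a proteasome subunit, ran only from an FPKM of 41.3 to one of 45.5. Among the visual cycle genes Stra6 ranked 131, Rgr 211 and Rdh5 467 in likeness to Rpe65, Rlbp1 4721 and Rbp3 10457, and Lrat was below the FPKM limit of the ranking.

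Other genes of retinoid metabolism were taken from a list of 58 retinol and retinal dehydrogenases, retinaldehyde oxidases, retinoid-binding proteins, carriers, lipases and receptors, of which 56 were in the files and 39 were tested. None passed the limits of the study, with 24 estimates higher in EFV and 15 lower, a median log2 fold change of 0.03 and a range from −0.35 to 0.33, against 50.5% of all genes with a higher estimate. The most abundant were Scarb1, a lipoprotein and carotenoid receptor, with 64.1 ± 2.55 FPKM for control (SD, n = 3) and 64.0 ± 1.39 for EFV, and Dhrs3, a retinal reductase, with 44.3 ± 2.89 and 46.8 ± 3.41 FPKM in the same order. They were followed by Adh5, an alcohol dehydrogenase, with 31.2 ± 1.067 and 32.6 ± 1.79 FPKM, and Degs1, a dihydroceramide desaturase for which a retinol isomerase activity has been described, with 28.9 ± 1.10 and 29.0 ± 0.703 FPKM. Rdh16f2, which the study lists, had 2, 3 and 6 counts in control 1, 2 and 3 and is not listed in the EFV libraries, which was taken as 0, so it was below the filter and was not tested.

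The markers of the other cells were compared in the same way. The median log2 fold change was −0.03 over 15 rod markers (6 higher, 9 lower), −0.02 over 10 cone markers (3 higher, 7 lower) and −0.02 over 15 Müller cell markers (4 higher, 11 lower), and the limits of the study were passed by 1 of these 40 genes, the rod marker Pde6g, with a log2 fold change of −0.14 (1.54% of all genes passed in that direction). All 8 endothelial markers had a lower estimate (median −0.11) and all 6 tested markers of fibroblasts and sclera a higher one (median 0.16). The summed FPKM of the latter was from 4.72 to 6.93 in control and from 5.84 to 8.35 in EFV, with Col1a2 past the limits and Lum not listed in a library. All 10 lens markers tested had a lower estimate in EFV (median −3.63) and passed the limits, control 3 holding the high values. Pde6g, Col1a2, the Müller cell marker Clu and the lens markers Crybb1, Crybb3, Mip and Bfsp2 are also in the study's gene table. The part of these other cells in the values of the visual cycle genes was not tested.

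**Figure D4:**
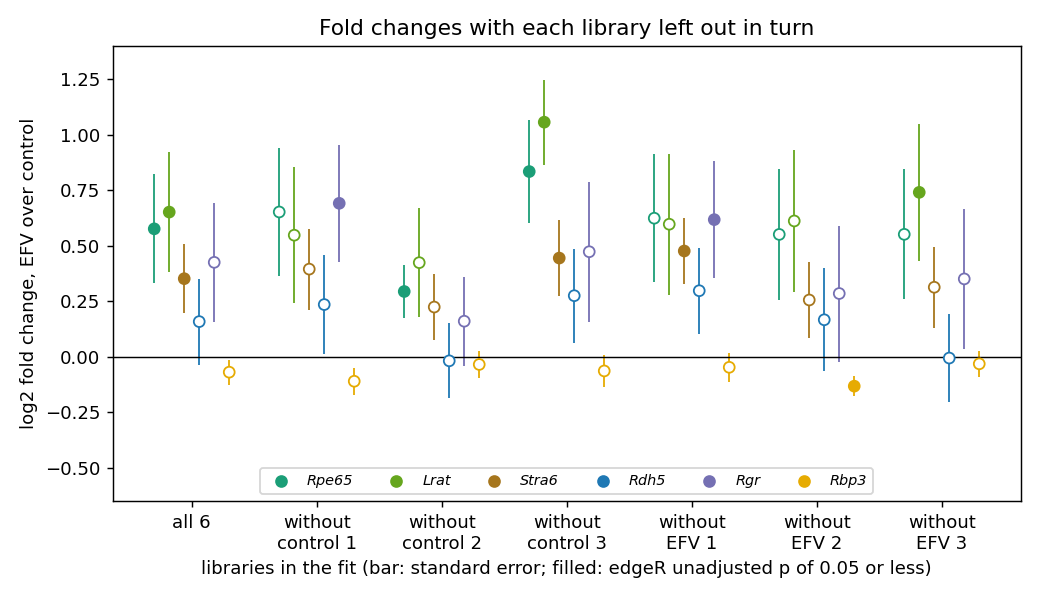
Log2 fold change of Rpe65, Lrat, Stra6, Rdh5, Rgr and Rbp3 fitted with all 6 libraries and after omission of every library in turn; bars are standard errors, and filled points have an unadjusted p of 0.05 or less in edgeR. Rpe65 runs from 0.29 without control 2 to 0.83 without control 3 and Lrat from 0.42 to 1.06 for the same libraries, and Rbp3 stays between −0.13 and −0.03.

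The calls at the limits of the study depended on single libraries. With a library left out, Rpe65, Lrat and Stra6 each passed in 2 of the 6 fits, Rgr also in 2, Rbp3 in 1 and the other 5 genes in none. Of all 15537 genes, these fits put 182 to 266 past the limits as higher and 207 to 310 as lower. The estimates of Rpe65, Lrat, Stra6 and Rgr remained above 0 in all 6 of these fits. Each of the 4 had its lowest estimate without control 2. The 4 photoreceptor genes stayed between −0.13 and 0.08 in these fits.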

How the data were processed

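Retinal RNAseq of 3 control and 3 EFV pools was analysed. Per the labels, polyadenylated RNA was selected, whereas the study's methods name only random primers, and reads were aligned to mm10; the submitters' notes name HISAT2 2.0.4, Bowtie2 2.2.5 and RSEM 1.2.12. The authors deposited expected counts per gene, made with RSEM and not normalized, and FPKM values, rounded and listed down to 0.01. A gene not listed in a library was taken as 0. Read filter settings, annotation release and strandedness are not given in the sources used here.

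Expected counts were rounded, and genes that reached 10 counts in 3 or more libraries were tested with edgeR 4.0.16 (R 4.3.3; quasi-likelihood, TMM, group as the only term, two-sided, BH over 15537 genes). The study's limits (p of 0.05, change of 7% or more) rest on a Poisson model; here they were put on the unadjusted p of edgeR, and a Poisson model was an alternative, as were other scalings and filters, DESeq2 1.42.0, limma 3.58.1 on log2(FPKM + 0.1) and log2(FPKM + 1), the replicate number as a block, an RPE marker covariate and leaving out each library. With 3 against 3 libraries an exact permutation test cannot give a two-sided p below 0.10. Coordinates are those of the RefSeq annotation of GRCm38.p6, by Entrez identifier (17680 of 17705 found), and promoters were matched for all 10 genes.

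The 10 genes and all gene lists were chosen with earlier results of these data known. Named were all 10 genes; of other retinoid genes, those past the limits and the 4 most abundant; of RPE markers, the same; and the 5 genes most like Rpe65. Rrh and Ttr stand in both lists. The scripts were tested on simulated data. Some items are not reported here. The sterol, imaging and proteomic data of the study were not analysed here.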

Additional observations from a re-analysis of the deposited data

How the results depend on the processing

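Over the 10 genes and 17 alternatives, 139 of 170 estimates kept their direction and their side of the limits of the study, 19 were no longer past them, 5 newly were, and 7 changed sign. Left out in turn, the libraries gave 1 to 3 visual cycle genes past the limits, 0 to 2 other retinoid genes, 0 to 1 genes at an adjusted p of 0.05, and an RPE minus photoreceptor difference of 0.27 to 0.64. Of all 15537 genes, these fits put 182 to 266 past the limits as higher and 207 to 310 as lower. In the same fits Rdh5 ran from −0.018 to 0.30, Rlbp1 from −0.060 to 0.0033, Rdh8 from −0.025 to 0.052 and Abca4 from −0.11 to 0.0077, all with a change of sign (for Rdh5 without control 2 and, at −0.005, without EFV 3). The Poisson model, in which pools do not vary, called 2043 genes at an adjusted p of 0.05. With the limits of the study on its unadjusted p, 5 visual cycle genes (Rdh5 and Rgr being added) and 6 of 39 other retinoid genes passed. Of all genes tested, 14.8% did so. DESeq2 called 11 genes at an adjusted p of 0.05. Without a filter 1 other retinoid gene, Rdh16f2, passed the limits, against 268 higher and 308 lower of all 19385 genes then tested. With the RPE marker covariate 0 visual cycle genes and 1 other retinoid gene (Aldh1a1) passed, against 197 of all genes higher and 211 lower. The class difference was then 0.14, Rdh5 was −0.16 and Rgr was −0.076, and the cause was not tested. Scaling by total counts alone moved the split of all genes past the limits from 228 higher and 239 lower to 288 and 159, with the median of all genes shifted by 0.02. Deviations of same-numbered libraries correlated by 0.124, 0.0729 and 0.102. Libraries of unlike number were not compared in this way, so these values cannot decide whether the numbers mark pairs. The main fit did not take them as pairs. With the replicate block 2 visual cycle genes passed (Rpe65 at 0.63 and Lrat at 0.71), against 244 of all genes higher and 270 lower. For each of the 10 genes counting error was below the spread between libraries.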
